A study of Mus musculus with 46 samples.

Results

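The histone variant H3.3 was mapped in unconverted mouse embryonic fibroblasts (MEFs) by 2 separate libraries, which are 2 of the 46 samples of the series and 2 of its 16 H3.3 libraries. They were chosen by their labels alone: D0 is the starting population of the reprogramming series and MEF is the starting population of the transdifferentiation series, both at day 0 and both made with the same lot of H3.3 antibody. The series followed H3.3 by ChIP-Seq while MEFs became induced pluripotent stem cells (iPSCs) after retroviruses delivered c-Myc, Klf4, Oct4 and Sox2, or hematopoietic cells after Scl, Lmo2, Runx1 and Bmi1, the set abbreviated SLBR. The labels give MEFs as the source of both libraries, with neither sorted, and Day 0 post SLBR induction as the time of MEF. Per the methods of the study, the MEFs came from embryos in which an EGFP cassette behind an internal ribosome entry site follows the stop codon of Oct4, and fibroblasts for the hematopoietic route were first depleted of cells carrying blood surface markers. Whether both libraries came from the same embryos is not stated. Neither group has a second library, so every difference between D0 and MEF compares 1 library with 1 library and no test between them could be run.

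H3.3 differs from the replication-coupled forms of H3 by a handful of residues and enters chromatin throughout the cell cycle. The chaperone Hira places it at active genes, promoters and regulatory elements, while Atrx with Daxx places it at telomeres and other repeat-rich heterochromatin. In fibroblasts, regulatory elements away from promoters commonly carry motifs of AP-1 (Fos and Jun family dimers) and of TEAD factors, the DNA-binding partners of Yap.

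The lists differed in size before any comparison. D0 held 89727 peaks over 130 Mb and MEF held 52862 peaks over 57.4 Mb, although MEF had the deeper library, 46.7 M against 27.0 M tags. In D0 19.1% of the tags lay in peaks, and in MEF 7.64%. The score of a peak is the tag count scaled by the authors to 10 M tags, and per kb of peak its median was 13.6 in D0 and 11.8 in MEF. The fold over input separated the libraries further, with a median of 4.13 in D0 and 2.61 in MEF, and 55.1% of D0 peaks but 4.03% of MEF peaks reached a fold of 4. The tag threshold of a 500 bp window, on the same scale, was 12.6 tags per kb in D0 and 10.3 in MEF. That threshold was no floor for the score, since 21.9% of D0 peaks had a score per kb below it. The maximum number of tags considered per bp was also unlike, at 1 in D0 and 2 in MEF. These properties differ together between the libraries, and their part in any single missing peak was not tested.

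Of the D0 peaks, 29916 overlapped a MEF peak by at least 1 bp, which was 33.3% of the list (95% Wilson interval 33.0 to 33.7). Of the MEF peaks, 34311 overlapped a D0 peak, which was 64.9% (64.5 to 65.3). These peaks are called recurring below, and the other 59811 D0 peaks and 18551 MEF peaks are called D0-only and MEF-only. Intervals on shares cover counting error only. With the stricter demand that the midpoint of a peak lie inside a peak of the other library, 20.6% of D0 peaks and 54.7% of MEF peaks recurred. Among peaks with a fold of at least 4 in both lists, 1.10% of 49451 D0 peaks and 25.9% of 2131 MEF peaks recurred. Only 4.03% of MEF peaks reached that fold, so the short MEF list limits how many D0 peaks could recur. The D0 share at this fold is therefore no measure of how well strong D0 peaks recur. Apart from this limit, the cause of the lower shares was not tested. The recurring peaks were the heavier part of the D0 list, since recurring D0 peaks had a median length of 1701 bp and held 60.5% of the summed score, whereas D0-only peaks had a median length of 637 bp. In MEF the recurring peaks held 81.2% of the summed score, with a median length of 812 bp against 500 bp in MEF-only peaks. Bases under peaks of both libraries formed 35738 stretches and 37.4 Mb in all.

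Sequences under intergenic peaks are shown first, as examples of a property that played no part in the calling of peaks. Each is 151 bases of mm9, plus strand, around a match to TGANTCA, the AP-1 consensus with N for any base, in capitals. The peaks are those with the highest score per kb (for recurring peaks, the smaller value of both libraries). Only peaks with a match within 100 bp of the midpoint and an input density under 5 times the library median were ranked. Every stretch shown thus holds the motif by choice, and the stretches cannot compare recurring with unmatched peaks on it. Chromosomes 18 and Y and unplaced contigs were left out, and whether a stretch lies in a repeat was not examined.
Recurring chr12:113817012-113817162: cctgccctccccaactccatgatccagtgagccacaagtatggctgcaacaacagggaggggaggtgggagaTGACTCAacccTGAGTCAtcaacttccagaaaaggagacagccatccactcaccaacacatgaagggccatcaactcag
Recurring chr15:38400427-38400577: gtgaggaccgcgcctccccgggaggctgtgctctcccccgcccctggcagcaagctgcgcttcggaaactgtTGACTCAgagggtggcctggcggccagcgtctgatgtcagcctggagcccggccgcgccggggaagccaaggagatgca
Recurring chr2:126135058-126135208: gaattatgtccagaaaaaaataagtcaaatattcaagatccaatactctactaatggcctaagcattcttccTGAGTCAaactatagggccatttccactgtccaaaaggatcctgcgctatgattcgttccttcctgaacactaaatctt
D0-only chr12:88276684-88276834: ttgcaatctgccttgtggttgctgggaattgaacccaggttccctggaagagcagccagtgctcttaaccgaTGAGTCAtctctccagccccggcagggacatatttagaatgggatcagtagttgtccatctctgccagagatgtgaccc
D0-only chr14:44058587-44058737: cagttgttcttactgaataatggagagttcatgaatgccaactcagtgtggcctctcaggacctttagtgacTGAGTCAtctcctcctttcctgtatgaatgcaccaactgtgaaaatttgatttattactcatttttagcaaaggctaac
MEF-only chr16:87544419-87544569: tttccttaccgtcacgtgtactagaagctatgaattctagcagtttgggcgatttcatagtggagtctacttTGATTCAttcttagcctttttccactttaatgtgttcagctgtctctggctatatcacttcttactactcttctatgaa
MEF-only chr5:56910885-56911035: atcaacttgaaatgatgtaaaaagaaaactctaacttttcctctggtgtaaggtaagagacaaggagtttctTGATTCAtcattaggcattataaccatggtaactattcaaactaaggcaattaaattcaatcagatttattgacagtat
The first recurring stretch lay 9.98 kb from the nearest start site, that of Inf2, an actin-regulating formin, and held 2 matches. Its peak had a score per kb of 21.5 in D0 and 19.8 in MEF. The second lay 47.5 kb from Azin1 and had 21.5 in D0 and 18.99 in MEF, and the third lay 155 kb from Dtwd1, with 18.9 in D0 and 22.8 in MEF. The choice by the smaller value favours peaks of like density, so this closeness is a description of the choice. The D0-only stretches came from peaks of 28.5 and 23.8 per kb, and the MEF-only stretches from peaks of 31.6 and 21.6 per kb, so a high density alone did not make a peak recur.

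Across all intergenic peaks, TGANTCA was found within 500 bp windows centred on the midpoint in 29.5% of recurring D0 peaks (28.6 to 30.4, n = 9806) and 27.0% of D0-only peaks (26.4 to 27.7, n = 18045). Windows 5 kb to either side, outside the peaks of both libraries, held it in 14.0% of cases for both sets. D0-only peaks were thus enriched for the AP-1 letters over their flanks almost as much as recurring D0 peaks. In MEF the sets parted: 27.1% of recurring peaks (26.2 to 27.9, n = 10513) and 19.6% of MEF-only peaks (18.7 to 20.5, n = 7388) held the motif, with 13.3% and 14.3% in their flanks. The D0-only share exceeded the MEF-only share by 7.47 points (6.35 to 8.57). Peaks of 500 bp or less gave 23.2% for D0-only and 19.2% for MEF-only, so the gap narrowed to 3.98 points (2.51 to 5.44) when length was held. In these short peaks recurring D0 peaks had 20.3%, below D0-only, which turned the order found over all lengths. With D0 reduced to as many peaks as MEF, the recurring share minus the D0-only share was -0.0642 points (-1.48 to 1.35), an interval that includes 0. TGANTCA includes the classical TGACTCA and is its own reverse complement, so that one search covers both strands.

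The other motifs separated the sets less or differently. GGAATG, the TEAD letters, stood in 31.3% of recurring D0, 29.0% of D0-only, 30.5% of recurring MEF and 29.4% of MEF-only intergenic windows, against 24.3 to 25.5% of the flanks, so unmatched peaks of both libraries were above their flanks. GGGCGG, the GC box bound by Sp1-type factors, stood in 9.66% of recurring D0 windows and 6.20% of D0-only windows, where the D0-only flanks had 5.62%. In MEF it stood in 10.3% of recurring and 9.69% of MEF-only windows. D0-only peaks were thus near the flank level for the GC box but not for AP-1, and MEF-only peaks were above their flank level of 5.72% for the GC box. CCAAT stood in 48.5 to 51.9% of the windows and in 52.6 to 54.5% of the flanks.

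Recurrence rose steeply with the length of the peak. In D0, 12.2% of the 29175 peaks of 500 bp or less recurred, 22.5% of those up to 1 kb, 42.4% up to 2 kb, 69.3% up to 5 kb, 92.1% up to 10 kb and 99.4% of the 711 longer ones. In MEF the same classes recurred at 45.0%, 66.3%, 86.5%, 97.5%, 99.6% and 100%. The share rose with every step of length in both libraries, by 81.4 points in D0 (80.5 to 82.3) and 54.7 points in MEF (53.7 to 55.4) from 500 bp or less to over 5 kb. A long peak offers more bases to be met, and by midpoint the same difference was 42.3 points in D0 and 55.7 points in MEF. In D0 the midpoint share of peaks over 10 kb was 61.5%, well under their 99.4% by any base. MEF thus covered parts of nearly every long D0 domain but not its centre in each case, and on average 52.2% of the bases of a D0 peak over 10 kb lay under MEF peaks, against 94.9% the other way.

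**Figure D1:**
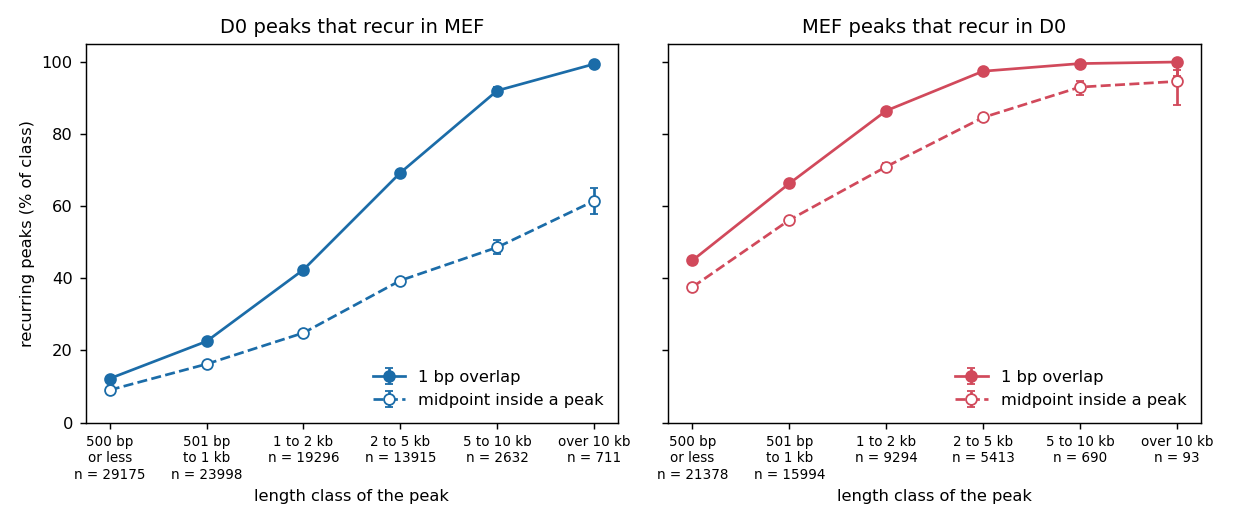
Share of D0 peaks (left) and MEF peaks (right) that recurred in the other library, in percent, by length class of the peak. Filled points use an overlap of 1 bp, open points the midpoint, bars are 95% Wilson intervals, and the number of peaks stands under each class. Both curves rise with length, from 12.2% to 99.4% in D0 and from 45.0% to 100% in MEF by 1 bp overlap.

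Density gave a second ordering. By quintile of score per kb, recurrence in D0 went from 20.9% in the lowest to 56.3% in the highest, a difference of 35.4 points (34.4 to 36.3), and in MEF from 46.3% to 84.5%, a difference of 38.3 points (37.1 to 39.4). Denser peaks recurred more often in both libraries. Density and length overlap as properties, and among peaks of 500 bp or less, ranked anew, the gain shrank to 5.96 points in D0 and 22.6 points in MEF. Short D0 peaks were therefore poorly recovered at any density: the highest quintile of D0 peaks recurred at only 17.7% when 500 bp or less in length, and at 59.5% when 1 to 2 kb. MEF peaks whose score per kb reached the D0 tag threshold of 12.6 recurred at 81.0%, and those under it at 55.5%.

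The fold over input did not rank the peaks in the same way. In D0 the quintiles of fold recurred at 27.8%, 32.0%, 38.4%, 39.0% and 29.5%, highest in the middle. In MEF recurrence fell with every step, from 78.1% in the lowest quintile to 49.9% in the highest, by 28.2 points (26.9 to 29.4). Input density moved with this. Peaks in the lowest quintile of input tags per kb recurred at 23.2% in D0 and 44.6% in MEF, and those in the highest at 39.1% and 83.2%. A high fold in MEF went with short peaks, since the median length was 500 bp in its highest fold quintile and 893 bp in its lowest.

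Position in relation to protein-coding genes separated the peaks as well, with differences between the libraries. Peaks at promoters (1000 bp before to 100 bp after a start site) recurred at 52.9% in D0 and 74.0% in MEF. Peaks around transcript ends recurred at 40.2% and 78.9%, exonic peaks at 35.2% and 70.7%, intronic peaks at 29.7% and 66.4%, and intergenic peaks at 35.2% and 58.1%. Promoters exceeded intergenic peaks by 17.8 points in D0 (16.2 to 19.3) and 15.9 points in MEF (14.3 to 17.4). Introns were the class that recurred least in D0, 5.48 points under intergenic peaks (4.79 to 6.17), whereas in MEF introns were 8.25 points above them (7.33 to 9.17). Introns held 57.4% of the D0-only peaks and intergenic sequence 30.3%, while MEF-only peaks were 45.9% intronic and 41.0% intergenic.

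**Figure D2:**
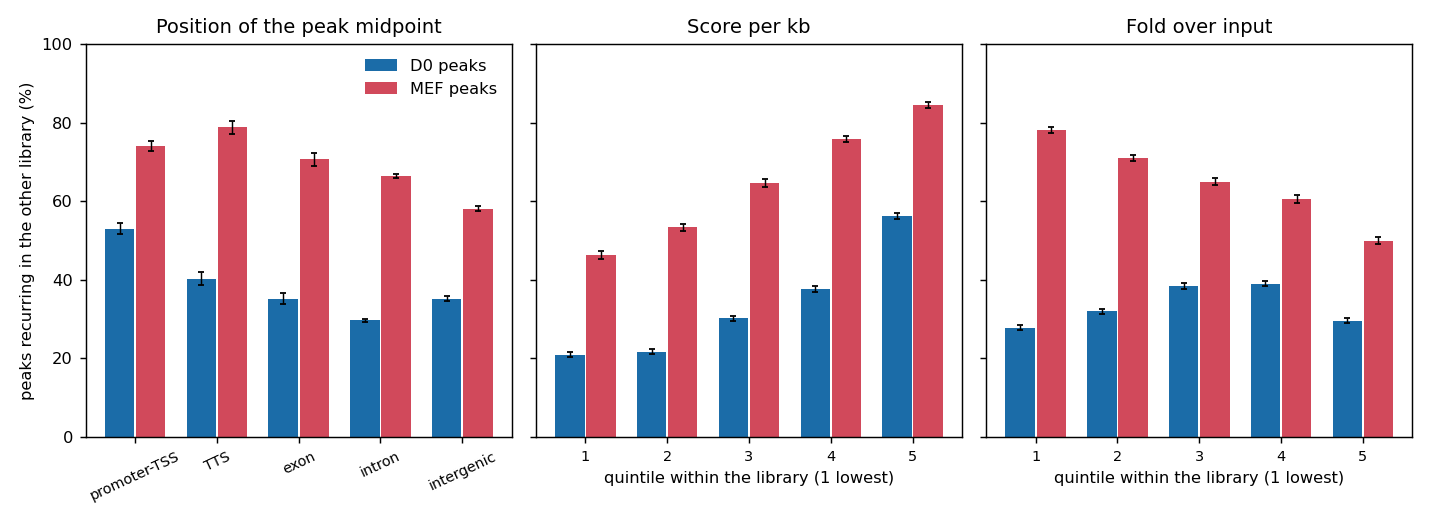
Share of peaks recurring in the other library (percent, 1 bp overlap) for D0 and MEF peaks, by position of the midpoint, by quintile of score per kb and by quintile of fold over input within each library. Thin bars are 95% Wilson intervals; recurrence rises with score per kb in both libraries and falls with fold over input in MEF, from 78.1% to 49.9%.

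Among peaks of 500 bp or less the shares were lower and promoters still led in D0. There 26.9% of promoter peaks recurred, against 13.8% of intergenic, 10.3% of transcript-end and 10.3% of intronic ones, so transcript ends lost the second place they held over all lengths. In MEF 58.5% of short peaks at transcript ends, 53.5% of exonic, 51.1% of promoter, 48.0% of intronic and 37.2% of intergenic ones recurred. Chromosome X gave few peaks and low recurrence in both libraries, with 22.9% of 589 peaks in D0 (19.7 to 26.5) and 35.6% of 388 in MEF (31.0 to 40.5), against 33.4% and 65.4% on the autosomes. Peaks there were short, with a median of 500 bp in both libraries. On unplaced contigs 28.3% of 113 D0 peaks and 14.9% of 242 MEF peaks recurred. Recurrence also rose with GC content in D0, from 19.7% in the lowest quintile to 44.4% in the highest, but stayed between 63.5% and 66.4% across the quintiles in MEF.

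The unmatched peaks with the highest scores were of different kinds in the libraries. The highest D0-only peak, at chr2:33080586-33103344, spanned 22.8 kb of the Ralgps1 and Angptl2 region with a score of 329.8, a fold of 4.06 and an input density of 1.07 times the median. The next lay in an intron of Mmd at chr11:90124275-90143015, 18.7 kb long, with a score of 307.9, a fold of 4.38 and input of 1.12 times the median. These were long domains with ordinary input. Next by score came a short peak of 14.3 times the median input, and then, at chr5:54047292-54057022 overlapping Rbpj, the DNA-binding effector of Notch, again a broad domain of 9.73 kb with a fold of 4.44. The last of the leading 5, in an intron of Ppp2r2b, had 22.1 times the median input.

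The 5 highest MEF-only peaks all had dense input. The first, at chr17:13743079-13746341, had a score of 1258.4 and an input of 24.3 times the median, the second, at chr17:13498714-13499595, a score of 336.4 and 25.1 times, and the next lay on an unplaced contig with 37.8 times. The next pair, at chr11:3042699-3044190 and chr11:3092702-3093804, overlapped Sfi1, which encodes a centrin-binding protein, and the second of them also ran past its start, with folds of 2.04 and 2.06. Of the 100 MEF-only peaks with the highest scores, 35 had an input at least 5 times the median, against 4 of 100 for D0-only. Of all 39 MEF-only peaks with such input, 66.7% lay within 1 Mb of a chromosome end or on an unplaced contig. At the start of a chromosome this 1 Mb was counted from 3 Mb onwards. The 5 intergenic recurring peaks with the highest score per kb, a ranking unlike that by score, also had dense input. The leading one, at chr2:57481751-57482507, had 818 per kb in D0 and 815 in MEF, with inputs of 41.3 and 53.1 times the medians, and the other 4 had inputs of 22.6 to 48.9 times. Dense input therefore occurred in both recurring and unmatched peaks, but not equally often. Of the 100 recurring peaks with the highest scores, 12 in MEF and 3 in D0 had an input at least 5 times the median. Of all 38 recurring MEF peaks with such input, 13.2% lay near a chromosome end or on an unplaced contig. High-input peaks were too few to move the totals, and without high-input peaks in either library 33.3% of D0 and 64.9% of MEF peaks still recurred. Among MEF-only peaks of lower input, Klf4, a reprogramming factor, had a peak of 3.92 kb at its transcript end, at chr4:55540948-55544870, with a score of 60.4 and a fold of 2.32.

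By the midpoint rule, which calls a gene bound if a peak midpoint falls within the gene or 1 kb to either side, 10373 of 22238 protein-coding genes were bound in both libraries (46.6%), 2762 in D0 only (12.4%), 1068 in MEF only (4.80%) and 8035 in neither. D0 bound 13135 and MEF 11441 of the 22238 genes. Genes bound in both made up 79.0% of the D0-bound genes (78.3 to 79.7) and 90.7% of the MEF-bound genes (90.1 to 91.2). A gene can be bound in both without a peak in common, so these shares cannot be compared with those of peaks. Counting any peak base in place of midpoints gave 11085 genes with H3.3 in both (49.8%). Genes bound in both carried a median of 3 D0 and 2 MEF midpoints. Of the MEF-only genes 81.5% rested on a single peak, and of the D0-only genes 55.8%. The share bound in both, among those bound in either, rose with gene length from 55.8% at 5 kb or less to 87.0% over 300 kb, and long genes also offer more room for a midpoint.

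The score of peaks was shared out to genes by the bases they covered and divided by length. Over the 10373 genes bound in both, the median was 2.52 per kb in D0 and 0.845 per kb in MEF, and Spearman's rho across genes was 0.81, a description in which genes share both libraries and their input. D0 was higher in general: the median log2 difference of score per kb, with 0.1 added, was 1.29 over the 14548 genes with a value in either library. Relative to that median, 3492 genes (24.0%) were over 2-fold higher in D0 and 2898 (19.9%) over 2-fold higher in MEF, with no replicate check on any of them. With a pseudocount of 1 these counts were 1605 and 812, so both the number of such genes and the balance between the libraries depended on the pseudocount. Dividing the scores by the summed score of each library, which was 2.50 times higher in D0, brought the median log2 difference to 0.19.

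Genes of at least 5 kb were ranked by the smaller score per kb of both libraries. Eef2, the elongation factor that moves the ribosome along its message, led with 23.4 per kb in D0 and 23.6 in MEF. Thbs1, the matrix glycoprotein thrombospondin-1, had 22.2 and 18.7. Sparc, a collagen-binding matrix protein, had 19.6 and 17.3. In these genes the libraries were close, and peaks covered 88.4 to 100% of each gene with its flanks in both libraries. The ranking by the smaller value favours genes dense in both, so closeness and coverage are a description of the choice. Relative to the median log2 difference of D0 over MEF, Eef2 stood at -1.30, Thbs1 at -1.04 and Sparc at -1.11. By that measure they were over 2-fold higher in MEF. Col1a1, which encodes the main chain of type I collagen, had 21.6 in D0 and 16.9 in MEF, Myh9, non-muscle myosin heavy chain, had 20.2 and 16.7, and Acta2, smooth muscle actin, had 16.7 and 16.5. Also among the leading 10 were Eif4a1, a helicase of translation initiation, with 21.6 and 17.9, Bloc1s1 with 20.5 and 17.1, and Rpl3, a ribosomal protein, with 19.4 and 17.7. Rpl3 shows a limit of the midpoint rule, since it had no D0 midpoint although D0 peaks covered 86.2% of it.

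**Figure D3:**
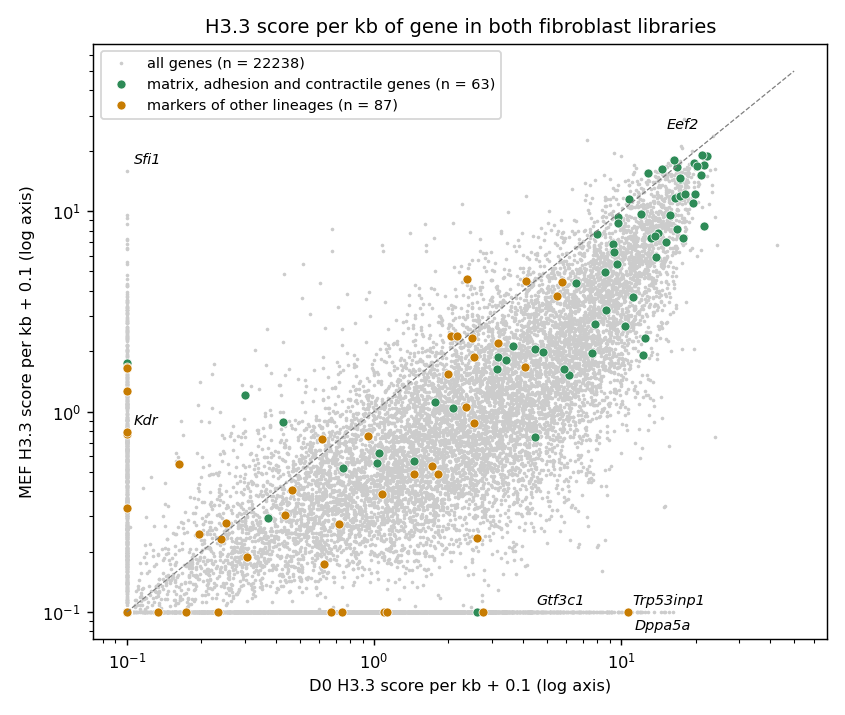
H3.3 score per kb plus 0.1 in D0 (x axis) and MEF (y axis), both on log axes, for 22238 genes (grey), matrix, adhesion and contractile genes (green) and markers of other lineages (orange), with the dashed line marking equal values. Most genes with a value in either library lie under the line, Eef2 lies near it at the dense end, and genes on an edge have no peak in 1 library.

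The longest stretches under peaks of both libraries lay over protein-coding and RNA genes. The longest, 61.1 kb at chr15:77586289-77647406, lay over Myh9, where D0 had a peak of 90.7 kb at 20.4 per kb and MEF a peak of 61.1 kb at 17.4 per kb. The next, 36.7 kb at chr19:5808813-5845547, lay over Neat1, the long noncoding RNA of paraspeckles, with 23.2 per kb in D0 and 16.7 in MEF. A stretch of 29.3 kb at chr6:31000995-31030304 held Mir29a and Mir29b-1, microRNAs that target collagen messages, with 22.6 and 18.2 per kb. Sparc, with 26.0 kb, and Tpm1, a tropomyosin, with 25.7 kb, completed the first 5. In all 5 the MEF density was below the D0 density.

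Promoter sequence is shown for a pair of these genes because dense H3.3 over the gene did not always include the start. Each line is mm9 from 250 bases before to 50 after the annotated start, in the direction of the gene (Thbs1 on the plus strand, Myh9 on the minus strand), with capitals for GGGCGG and CCAAT on either strand.
Thbs1 chr2:117937362-117937661: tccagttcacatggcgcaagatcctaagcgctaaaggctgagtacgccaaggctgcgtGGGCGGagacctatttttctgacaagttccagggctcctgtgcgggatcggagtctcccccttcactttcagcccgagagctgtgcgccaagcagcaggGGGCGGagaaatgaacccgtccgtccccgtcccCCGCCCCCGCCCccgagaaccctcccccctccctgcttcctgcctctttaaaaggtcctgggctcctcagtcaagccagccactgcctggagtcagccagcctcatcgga
Myh9 chr15:77672556-77672855: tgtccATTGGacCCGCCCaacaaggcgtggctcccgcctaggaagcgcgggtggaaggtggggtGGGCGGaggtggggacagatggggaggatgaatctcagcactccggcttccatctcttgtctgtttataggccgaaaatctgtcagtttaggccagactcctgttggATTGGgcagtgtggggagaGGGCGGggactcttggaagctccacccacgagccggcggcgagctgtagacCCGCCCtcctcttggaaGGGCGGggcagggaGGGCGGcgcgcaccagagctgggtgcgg
The Thbs1 window lay under peaks of both libraries and held 4 GC boxes and no CCAAT. The Myh9 window lay under no peak of either library and held 6 GC boxes and 2 CCAAT boxes, although D0 peaks covered 99.4% of Myh9 with its flanks. Among all promoters of this length, 2498 lay under peaks of both libraries (11.2%), 2343 under D0 only and 1603 under MEF only. GGGCGG was found in 61.0% of promoters under both, 58.9% under D0 only, 68.2% under MEF only and 35.9% under neither, against 43.5% of all. CCAAT was found in 35.4%, 36.9%, 38.1% and 38.6% of them, against 37.99% of all. The share under both (33.5 to 37.3) was thus slightly below that under neither (37.8 to 39.3), a far smaller gap than for GGGCGG.

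Over the 8154 genes of at least 10 kb bound in both libraries, the profile along the gene differed. In D0 peaks covered on average 33.2% of the bases in the 1 kb before the start, 18.4% in the middle of the gene and 30.6% in the last of 20 equal bins. In MEF the same places were covered at 24.9%, 6.79% and 13.4%. Both libraries thus had a rise at the start and a second rise at the end, but the first bin over the middle was 1.31 times in D0 and 2.82 times in MEF. For orientation, H3K36me3 of D0, the mark of elongation, rose from 2.28% at the start to 45.1% at the end, while H3K4me3, the mark of active promoters, fell from 64.2% to 3.84% in the middle. D0 peaks covered more bases at every one of these places, outside genes too, with 12.5% against 5.14% in the bin 5 kb before the start. Relative to that bin the middle of the gene was covered 1.48 times as much in D0 and 1.32 times in MEF, a smaller contrast than that of the first bin with the middle.

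**Figure D4:**
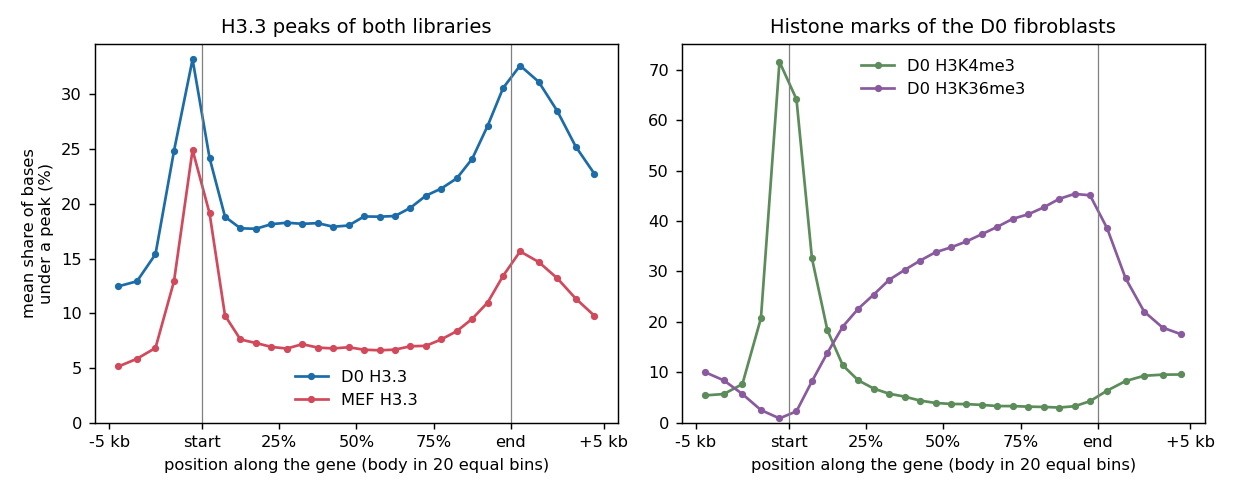
Mean share of bases under a peak (percent) along 8154 genes of at least 10 kb bound in both libraries, with 5 kb to either side in 1 kb bins and the gene body in 20 equal bins. Left, H3.3 of D0 and MEF, which peak before the start at 33.2% and 24.9%; right, H3K4me3 and H3K36me3 of the D0 fibroblasts.

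Matrix, receptor and contractile genes recurred nearly as whole groups. They are not all particular to fibroblasts, since Actb stands in both the contractile and the housekeeping list. Of 25 genes of fibrillar collagens and matrix, 23 were bound in both libraries, none in D0 only and 2 in MEF only. Col5a1 had 14.0 per kb in D0 and 7.71 in MEF, Fn1, fibronectin, 15.6 and 9.43, Fbn1, fibrillin-1, 10.2 and 2.58, and Tnc, tenascin-C, 21.5 and 8.35. The exceptions were Lum, a small collagen-binding proteoglycan, with no D0 peak and 1.65 per kb in MEF, and Timp1, a protease inhibitor, which had a gene score of 4.39 per kb in D0 but no D0 midpoint. All 18 genes of adhesion and growth factor receptors were bound in both, among them the hyaluronan receptor Cd44 with 15.0 and 6.92 per kb and the endocytic receptor Lrp1 with 17.6 and 7.26. Fgfr1, a receptor of fibroblast growth factors, had 8.50 and 4.89, and the mesenchymal cadherin Cdh11 had 3.55 and 2.03. Of 20 contractile and cytoskeletal genes 19 were bound in both, with Cald1 at 11.9 and 9.62 and Actn1 at 17.1 and 11.8, and Cnn1, calponin, had 2.51 per kb in D0 and no MEF peak. These shares of 92 to 100% compare with 46.6% of all genes, which were not matched for gene length. Among genes bound in either library, the share bound in both rose with length. Of the lists described below, H3.3 genes and chaperones reached 90%, the MAPK cascade 78.9% and housekeeping genes 75%. Markers of other lineages reached 11.8 to 50%.

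Regulatory genes recurred at somewhat lower shares. Of 19 mesenchymal transcription factors 16 were bound in both, with Runx1 at 4.42 and 3.01 per kb and Prrx1, a limb mesenchyme factor, at 10.7 and 5.34, while Osr1 had a peak in MEF only and Meox2 and Tcf21 in neither. Of 20 AP-1 and TEAD-YAP genes 17 were bound in both. Amotl2, a target and inhibitor of Yap, had 15.7 and 16.8 per kb, and the DNA-binding partners of Yap, Tead1 and Tead3, had 8.47 and 14.3 in D0 and 3.62 and 10.7 in MEF. Junb and Jund failed the midpoint rule in D0 although D0 peaks gave them 17.6 and 10.98 per kb, so 19 of 20 had a peak base in both. Of 19 genes of the MAPK cascade 15 were bound in both, with Dusp1, a phosphatase that switches MAPK off, at 12.8 and 15.0 per kb and Dusp4, of the same family, at 12.3 and 6.82. The kinase Mapk14 was less alike between the libraries, at 7.80 per kb in D0 and 1.15 in MEF. Spry1, a feedback inhibitor, had 3.10 per kb in MEF and no D0 peak.

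The genes of H3.3 and its chaperones carried H3.3 themselves. Of 10, 9 were bound in both, with H3f3b at 9.14 per kb in D0 and 9.29 in MEF, H3f3a at 11.3 and 5.13, and Hira at 1.33 and 0.472. Atrx, on chromosome X, had 0.103 per kb in D0 and no MEF peak. Of 20 housekeeping genes 15 were bound in both by midpoint and 18 by any base, with Actb, cytoplasmic actin, at 21.0 and 18.9 per kb and the chaperone gene Hsp90ab1 at 23.9 and 16.2. B2m, with 1.20 per kb in D0, and Sdha, with 1.01, were those with no MEF peak, which shows that a widely expressed gene can lack a recurring peak.

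Among markers of other lineages, most of the blood and pluripotency genes had no peak in either library, whereas epithelial and endothelial genes were bound about as often as genes in general. Of 19 hematopoietic markers 13 had none, Ptprc, the pan-leukocyte antigen, and Gata1 among them, 5 were bound in both, led by the platelet integrin Itga2b at 5.38 and 3.68 per kb and Csf1r, the macrophage growth factor receptor, at 3.99 and 1.57, and the stem cell factor receptor Kit had 0.0730 in D0 and no MEF peak. Both libraries were alike in this, although the labels place MEF at the start of the hematopoietic route. Of 17 pluripotency markers 12 were unbound, and Sox2, at 2.45 and 1.78 per kb, and Esrrb were bound in both. Dppa5a had 10.5 per kb in D0 and no MEF peak, and Klf2 had 2.28 in D0 and 4.48 in MEF. Epithelial markers were bound in both at 7 of 16 and endothelial at 6 of 12, shares near the 46.6% of all genes. Neural and glial markers were bound in both at 4 of 11 and skeletal muscle markers at 2 of 12. In these groups the epithelial genes were densest, with the claudin Cldn7 at 5.66 and 4.31 per kb and Cdh3, P-cadherin, at 4.02 and 4.37. Erg, an endothelial factor, had more in MEF, 0.448 against 0.0631. Most matrix, receptor and contractile genes were thus bound in both libraries and most blood and pluripotency markers in neither. The share of other cells was not measured.

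Genes present in 1 library without a single peak base in the other named the extremes. Gtf3c1, a subunit of the RNA polymerase III factor TFIIIC, had a D0 score of 283.7 from 12 midpoints over 66826 bp, and Trp53inp1, a p53 target, 205.5 from 4 midpoints with 68.9% of the gene covered. Baz1a, a chromatin remodeller subunit, Parvb, an adhesion protein, and Rnf111, a ubiquitin ligase of the TGF-beta pathway, had 231.2, 225.6 and 217.4 over 23, 16 and 14 midpoints. These genes carried several separate D0 peaks, none of which MEF met. In the other direction Sfi1 had a MEF score of 998.8 over 9 midpoints, at the dense input described above. C130026I21Rik followed with 198.9, and Prdm11, Mpped2 and Slc24a4 had 51.3, 45.3 and 44.2, each below 1 per kb.

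Recurrence was then set against libraries that had no part in the split. D3, the next time of the reprogramming series, overlapped 63.2% of recurring D0 peaks and 30.4% of D0-only peaks, a difference of 32.9 points (32.2 to 33.5). It overlapped 59.2% of recurring MEF peaks and 16.6% of MEF-only peaks. D4 of the transdifferentiation series overlapped 95.8% and 68.2% of the D0 sets and 95.6% and 62.5% of the MEF sets. Recurring peaks were thus met more often in both. D4 covers 267 Mb and D3 81.4 Mb, so the levels cannot be compared between them, and MEF-only peaks were met less often than D0-only peaks even in D4, the library of their own series, by 5.61 points (4.82 to 6.402). By midpoint D4 met 59.7% of D0-only and 56.9% of MEF-only peaks, and D0-only peaks were the longer ones, with a median of 637 against 500 bp.

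The same order held in later and pluripotent cells. iPSCs met 44.5% of recurring D0, 22.7% of D0-only, 40.9% of recurring MEF and 19.2% of MEF-only peaks, and ESD3 embryonic stem cells 30.8%, 12.1%, 26.4% and 10.2%. Over the 14 other H3.3 libraries a recurring D0 peak was met in a median of 7 and a recurring MEF peak in 6, against 2 for D0-only and 1 for MEF-only peaks. No overlap in any of the 14 was found for 1.77% of recurring D0 and 1.76% of recurring MEF peaks, but for 15.0% of D0-only and 24.5% of MEF-only peaks (23.9 to 25.2). Recurring peaks were also longer, and the part of length in these shares was not tested.

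**Figure D5:**
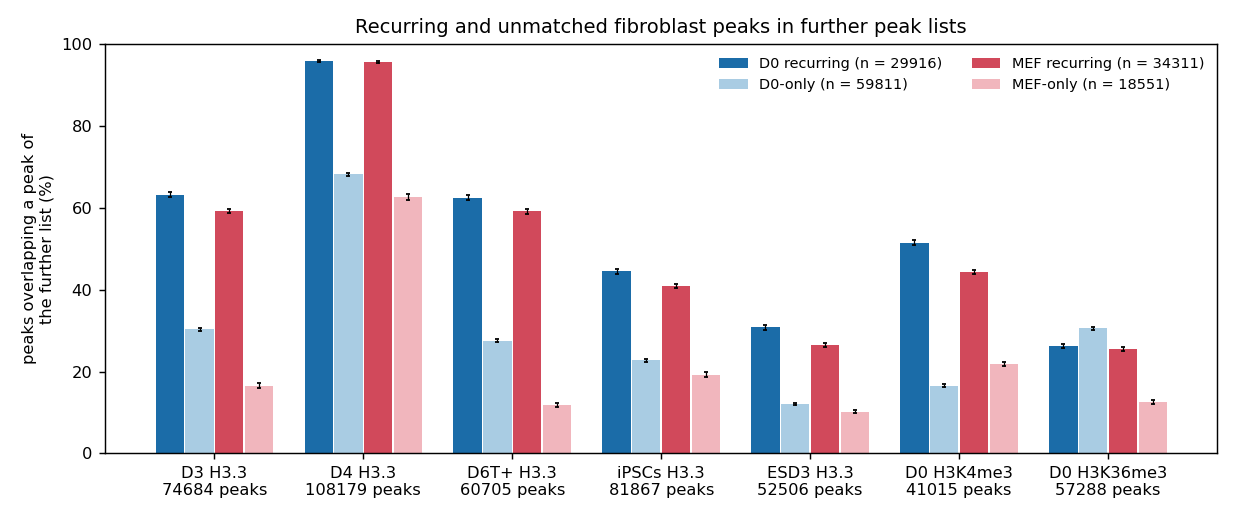
Share of recurring and unmatched D0 and MEF peaks that overlap a peak of 5 further H3.3 lists and of the H3K4me3 and H3K36me3 lists of D0, in percent with 95% Wilson intervals; the number of peaks in each further list stands under its name. Unmatched peaks (pale) are met less often than recurring ones (dark) in every list but H3K36me3, where D0-only peaks reach 30.5% against 26.3%.

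Histone marks of the D0 fibroblasts divided the unmatched sets. H3K4me3 overlapped 51.5% of recurring D0 peaks and 44.4% of recurring MEF peaks, but 16.6% of D0-only and 21.8% of MEF-only peaks. H3K36me3 overlapped 30.5% of D0-only peaks (30.1 to 30.9), more than the 26.3% of recurring D0 peaks, and 12.6% of MEF-only peaks. D0-only peaks thus exceeded MEF-only peaks by 17.9 points for H3K36me3 (17.3 to 18.5) whereas for H3K4me3 the difference was -5.24 points (-5.91 to -4.58). The H3K36me3 list and the D0 H3.3 list come from the same series, so the mark was measured beside D0 and not beside MEF. Among introns, where most D0-only peaks lay, 39.7% of D0-only and 19.5% of MEF-only peaks overlapped H3K36me3, and among peaks of 500 bp or less 27.4% and 13.9% did. Promoter peaks were mostly marked by H3K4me3 in every set, with 94.0% of recurring D0, 75.7% of D0-only, 92.0% of recurring MEF and 81.3% of MEF-only promoter peaks, so most promoter peaks that failed to recur still lay on an H3K4me3 promoter.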

How the data were processed

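H3.3 ChIP-Seq peak lists of D0 and MEF, 1 library each, were used with the groups given by the labels. Per the submitters' processing notes the reads were aligned to mm9 with STAR and peaks were called with HOMER in its mode for histone marks. The versions are not given in the sources used here. The file headers give 500 bp windows, a minimum distance of 1 kb, a fold of at least 2 over input and a p-value limit of 0.0001. They give a maximum of 1 tag considered per bp in D0 and 2 in MEF. The authors deposited a score per peak, which is a signal of tags scaled to 10 M, together with a ratio (fold over input) and a p-value over input. Depth was 27.0 M tags in D0 and 46.7 M in MEF. Most shares rest on many peaks, so their counting intervals (Wilson for a share, Newcombe for a difference, 95%) are narrow and hold no biological spread.

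Recurrence meant an overlap of at least 1 bp with a peak of the other library. Genes were the 22238 protein-coding symbols of GENCODE M1 on mm9, and the score of a peak was shared out by bases to each gene with 1 kb to either side. Levels were compared as log2 of score per kb plus 0.1. Python 3.11.15, numpy 2.4.6, pandas 2.3.3, scipy 1.17.1 and pysam 0.24.0 were used. Overlap counts were checked on simulated lists with planted overlaps and, for the real lists, against bedtools 2.31.1. Genes were named by rank: the 10 of at least 5 kb with the highest smaller score per kb of both libraries, the 5 with the highest score in 1 library and no peak base in the other, and from each of 14 lists up to 4 members with the highest smaller score and up to 2 bound in 1 library. Peaks were the 5 longest stretches under both libraries, the 5 highest-scoring unmatched ones of each and the 5 densest intergenic recurring ones. Spry1, B2m, Sdha, Meox2, Tcf21, Ptprc, Gata1 and the Klf4 peak were named after their values were seen. The members and lists were chosen with earlier results of these data known. Of 243 listed genes 238 were found, and Foxf1, Hras, Tfcp2l1, Spi1 and Map2 were not matched. A planned class by repeat content was not run because the reference used carries no repeat masking. The stretches limited to lower input and short peaks were added after seeing the data. Alternatives were stricter overlap, equal numbers of peaks, a fold of at least 4, autosomes, other gene rules, windows and pseudocounts. A few genes that these rules select, and 1 promoter, are not reported here.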

Additional observations from a re-analysis of the deposited data

How the results depend on the processing

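With 1 library per group no replicate could be left out and no test was run, so values are compared with their counting intervals alone. No paired analysis was possible because each group holds 1 library. Of 82 alternatives 16 stayed within that interval or, for counts, within 1.5 times, 65 moved and 1 changed sign. The cause of each shift was not tested. Alternatives on any peak base, on dense input and on the D0 tag threshold were chosen after seeing the data.

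Recurrence of D0 peaks was 17.5% with at least 50% of the peak covered, 20.6% by midpoint, 47.6% with the 52862 highest-scoring peaks of each library and 1.10% at a fold of at least 4. For MEF peaks the same settings gave 54.6%, 54.7%, 56.9% and 25.9%, and autosomes alone gave 65.4%. MEF peaks at or above the D0 tag threshold gave 81.0%. Genes bound in both numbered 9222 to 12494 except at a fold of at least 4, where 1111 were left. Only 2131 MEF peaks reach that fold, which limits both the D0 share and the gene count there.

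The difference by length was 42.3 points in D0 and 55.7 in MEF by midpoint, 61.3 and 62.6 with equal numbers, and 5.30 and 79.2 at a fold of at least 4, where the interval of the MEF value is as wide as 23.0 to 81.1. At that fold the D0 value is limited by the 2131 MEF peaks left. The difference by score per kb was 28.2 and 41.2 points by midpoint and 5.96 and 22.6 among peaks of 500 bp or less. Promoters exceeded intergenic peaks by 15.1 and 12.6 points by midpoint, and by 16.1 points in D0 peaks of 1 kb or less.

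D3 met 34.9% of D0-only and 14.7% of MEF-only peaks with 52506 peaks from every library, and 18.6% and 11.1% by midpoint. D4 met 64.4% and 54.1%, and 59.7% and 56.9%. For the AP-1 letters, recurring minus D0-only was 1.09 points in 200 bp windows and -0.0642 with equal numbers (-1.48 to 1.35, an interval that includes 0), recurring minus MEF-only was 3.99 points in 200 bp windows, and D0-only minus MEF-only was 3.88 points in 200 bp windows, 5.70 for TGACTCA alone and 11.2 with equal numbers. The median log2 gene difference was 0.65 with a pseudocount of 1, 1.15 over genes bound in both and 0.19 after dividing by summed score. Genes past 2-fold relative to the median were 43.9% of those with a value, and 16.6% with a pseudocount of 1.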
